A study of Mus musculus with 20 samples.

Results

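The question put to the data was whether single genes of the mouse abdominal aorta answer angiotensin II (AngII) in one Rab22a genotype and not in the other. The measure is the genotype by AngII interaction: the AngII response of knockout aortas (KO+AngII minus KO+NS) minus that of wild type aortas (WT+AngII minus WT+NS). All 20 libraries of the study enter it, in 4 groups of 5 libraries from C57BL/6 mice. WT+NS and WT+AngII are Rab22a wild type mice given saline or AngII, and KO+NS and KO+AngII are Rab22a knockout mice given the same. Treatment lasted 14 days and the AngII dose was 500 ng/kg/min. The labels give neither sex nor age and do not say whether each library is 1 mouse or a pool, and the knockout is named without its targeting design or a cell type. RNA was total RNA depleted of ribosomal RNA, from the whole vessel segment as dissected. The title of the series asks whether loss of Rab22a prevents AngII-induced hypertension and vascular dysfunction through recycling of the AT1 receptor.

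Rab22a is a small GTPase of early and recycling endosomes, where it helps to return internalised membrane proteins to the cell surface. AngII acts on the aortic wall mainly through the AT1 receptor, a G protein-coupled receptor that is internalised after it binds its ligand. Over days of infusion the wall is known to lay down collagen and elastic fibre proteins, smooth muscle cells change their contractile programme, and leukocytes enter the outer layer. An interaction differs from a genotype difference: a gene can be higher in knockout aortas under both treatments and have none.

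The values are FPKM, summed over the annotated transcripts of each gene. They corresponded to 68748500 to 77391500 reads per library. The main coding transcript of Rab22a, ENSMUST00000029024, reached 2.34 to 8.42 FPKM in WT+NS and 1.87 to 8.62 FPKM in WT+AngII, against at most 0.00363 in KO+NS and 0.00563 in KO+AngII. A Rab22a transcript annotated for nonsense-mediated decay, ENSMUST00000142820, reached 7.43 to 11.1 FPKM in KO+NS and 8.74 to 10.2 in KO+AngII, and the sum over the gene therefore does not show the knockout. WT+NS replicate 4 and WT+AngII replicate 2 had the lowest Rab22a sums, 2.82 and 2.65 FPKM. The smooth muscle genes that define the tissue were abundant in every library: Acta2, which encodes smooth muscle actin, ranged from 522 FPKM in KO+NS replicate 1 to 3128 in WT+AngII replicate 1. Several knockout libraries differed in the RNA levels of cell type markers. Mean log2(FPKM + 1) over T and NK cell markers was 4.39 and 4.86 in KO+NS replicates 1 and 3, above the 1.88 to 4.12 of wild type, and 0.547 to 1.40 in KO+NS replicates 2, 4 and 5 and KO+AngII replicates 1 and 2, below it. KO+AngII replicates 2 and 4 were low in nerve markers. Library weights, estimated from how far each library lay from its group, were lowest for KO+NS replicates 1 and 3 and KO+AngII replicate 2, at 0.281, 0.231 and 0.397, and highest at 2.75.

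No gene differed between the genotypes in its AngII response after adjustment. Of 15010 genes tested with limma, 0 (0.0%) had an interaction with an adjusted p under 0.05, and the smallest adjusted p was 0.995. At an unadjusted p under 0.05 there were 501 genes (3.34%), fewer than the 750.5 that would be expected if no gene changed. Genes are not independent, so such a count can lie well away from its expected value. Of the 501 genes, 229 (1.53%) were positive and 272 (1.81%) negative. limma-voom on the reads recovered from FPKM gave 0 called genes and 467 at an unadjusted p under 0.05. The responses themselves gave no call either. In wild type 0 genes (0.0%) passed and 458 (3.05%) had an unadjusted p under 0.05, with a smallest adjusted p of 0.938. In knockout 0 genes (0.0%) passed and 595 (3.96%) had an unadjusted p under 0.05, with a smallest adjusted p of 0.375. The median standard error was 0.22 for a response and 0.311 for an interaction on the log2(FPKM + 1) scale, which understates the change of genes with low FPKM. The interaction ranged from -0.73 at the 5th to 0.54 at the 95th percentile of genes, with a median of -0.07. The responses of the genotypes, which share no library, had a Pearson r of -0.06 and a Spearman rho of -0.10 across the 15010 genes. This is a description, since genes are not independent replicates. They had the same sign in 6770 genes and opposite signs in 8238.

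**Figure D1:**
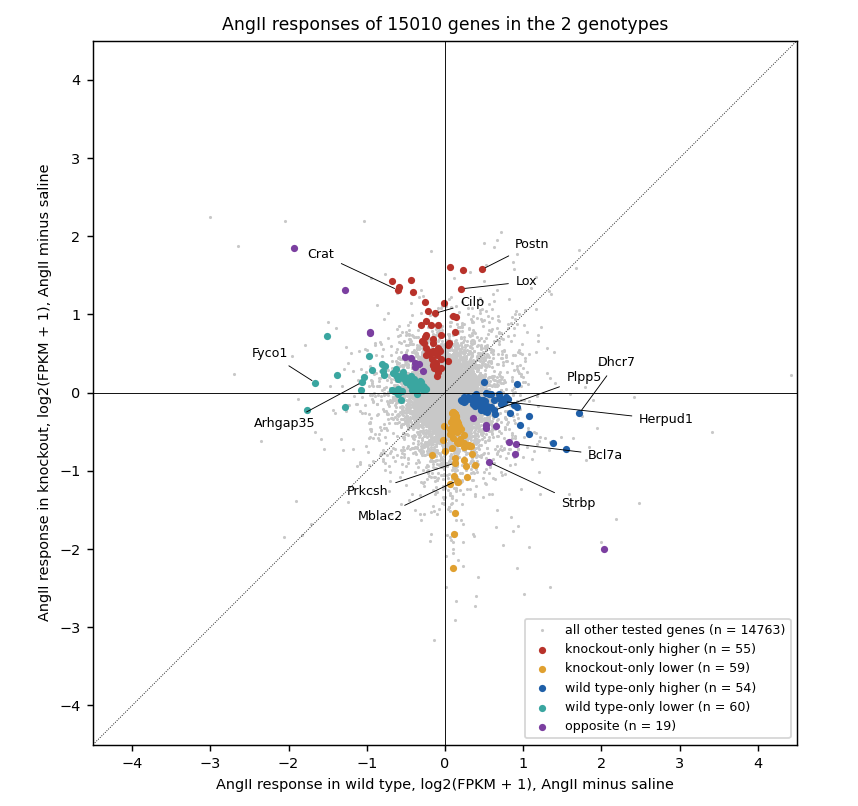
Each point is 1 of 15010 tested genes, with its AngII response in wild type on the x axis and in knockout on the y axis, both as a difference of mean log2(FPKM + 1) between 5 AngII and 5 saline libraries. Colours mark the 5 descriptive classes; the single-genotype ones lie along the axes because their rule asks for a response in 1 genotype, and the dotted line marks equal responses.

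Genes were then sorted into descriptive classes by the same model. A gene was placed in a single-genotype class when its response had an unadjusted p under 0.05 in that genotype, the other genotype's response had a p of at least 0.05 and was at most 0.5 times as large, and the interaction had an unadjusted p under 0.05. The classes hold 55 knockout-only higher genes (0.366%), 59 knockout-only lower genes (0.393%), 54 wild type-only higher genes (0.36%) and 60 wild type-only lower genes (0.4%). A further 19 genes (0.127%) had responses of opposite sign with a p under 0.05 in both genotypes. The class names describe the fitted values and are not calls. All 24 class genes described next, 5 from each single-genotype class and 4 from the opposite class, had an adjusted interaction p of 0.995. Because the rule used these contrasts, their values are given as a description. Library values are listed in replicate order, coordinates are mm10, and ± after a log2 difference is the standard error.

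Among knockout-only higher genes was Cilp (chromosome 9, 65265180 to 65280605), which encodes a secreted glycoprotein of the extracellular matrix. Its FPKM was 9.22, 3.98, 6.598, 6.97 and 4.46 in KO+NS and 11.5, 17.2, 13.2, 14.7 and 10.2 in KO+AngII. In WT+NS it was 6.67, 8.48, 4.98, 7.45 and 10.4, and in WT+AngII 5.32, 6.45, 4.68, 7.24 and 11.2. All 5 KO+AngII libraries lay above all 5 KO+NS libraries, and the wild type groups overlapped. The response was 1.01 ± 0.23 in knockout and -0.13 ± 0.23 in wild type, an interaction of 1.14 ± 0.33 (95% interval 0.46 to 1.83, unadjusted p = 0.00251). One transcript, ENSMUST00000048762, held 99.99% of the gene's interaction in FPKM.

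Cdip1 (chromosome 16, 4750348 to 4790292), a p53 target linked to cell death, had the smallest interaction p of the class, 0.00123. Its FPKM was 9.93, 14.1, 8.54, 11.8 and 10.4 in KO+NS and 21.9, 20.6, 21.4, 13.9 and 11.6 in KO+AngII. The wild type libraries held 10.98, 14.2, 12.6, 12.6 and 12.7 under saline and 11.1, 9.63, 11.7, 11.5 and 7.91 under AngII. KO+AngII replicates 1, 2 and 3 exceeded every other library, while replicates 4 and 5 of that group overlapped with the rest. The interaction was 0.90 ± 0.24, and the knockout response 0.64 ± 0.17.

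Pdgfd (chromosome 9, 6168584 to 6378850), a platelet-derived growth factor ligand, had 3.36, 5.31, 3.15, 4.81 and 5.38 FPKM in KO+NS and 5.15, 8.07, 6.02, 6.62 and 7.998 in KO+AngII. In wild type it had 4.97, 6.46, 6.31, 4.45 and 6.49 under saline and 5.51, 4.73, 5.37, 4.96 and 4.44 under AngII. The KO+AngII mean of 6.77 ± 1.27 FPKM (SD, n = 5) stood beside a KO+NS mean of 4.4 ± 1.07 (SD, n = 5), and KO+AngII replicate 1 lay inside the KO+NS range. Its interaction was 0.69 ± 0.21.

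Slc39a8 (chromosome 3, 135825279 to 135888572) and Crat (chromosome 2, 30400471 to 30415813) stood in this class through a low KO+NS group. Slc39a8 encodes a zinc and manganese transporter, and had 1.32 ± 0.338 FPKM in KO+NS and 2.34 ± 0.548 in KO+AngII, beside 2.06 ± 0.468 in WT+NS and 1.69 ± 0.5096 in WT+AngII (SD, n = 5 each). Crat encodes carnitine acetyltransferase, which links acetyl-CoA to carnitine in mitochondria. Its FPKM was 13.8, 77.5, 24.4, 22.3 and 26.3 in KO+NS and 57.9, 87.5, 68.2, 60.2 and 79.3 in KO+AngII. The WT+NS libraries held 91.6, 80.6, 112, 47.6 and 27.1 and the WT+AngII libraries 31.9, 30.4, 28.4, 96.3 and 47.8. KO+NS replicates 1, 3, 4 and 5 lay below every KO+AngII library and replicate 2 among them, and the wild type groups overlapped with both. The interactions were 0.71 ± 0.22 for Slc39a8 and 1.92 ± 0.60 for Crat. The brown adipocyte list, whose cells are rich in such enzymes, was lowest in KO+NS too, at 4.13 ± 0.80 against 4.74 ± 0.55 in WT+NS (mean log2(FPKM + 1), SD, n = 5). Its part in the value of Crat was not tested.

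Among knockout-only lower genes Prkcsh (chromosome 9, 22002806 to 22014222) had the smallest interaction p of the 4 single-genotype classes, 0.000643. It encodes the beta subunit of glucosidase II, which trims N-glycans of new proteins in the endoplasmic reticulum. Its FPKM was 13.4, 10.9, 14.4, 26.1 and 13.5 in KO+AngII and 30.6, 23.5, 34.8, 29.9 and 26.1 in KO+NS. The wild type libraries held 37.3, 30.7, 27.1, 44.4 and 33.8 under saline and 37.6, 35.5, 40.1, 34.9 and 40.1 under AngII. KO+AngII replicates 1, 2, 3 and 5 lay below every library of the other groups, and replicate 4 lay among the KO+NS values. The response was -0.90 ± 0.18 in knockout and 0.13 ± 0.18 in wild type. Its main transcripts differed: ENSMUST00000115331 averaged 1.04 FPKM in KO+AngII against 9.27 in KO+NS, 20.8 in WT+NS and 21.9 in WT+AngII, while ENSMUST00000003493 averaged 14.1, 19.1, 13.2 and 15.1 FPKM in the same order. The first was therefore lower in KO+NS than in wild type as well.

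Vps29 (chromosome 5, 122354369 to 122364984) encodes a subunit of retromer, the coat that returns cargo from endosomes. Its FPKM was 19.9, 14.3, 14.3, 17.8 and 17.5 in KO+AngII and 25.5, 22.7, 27.4, 29.5 and 32.2 in KO+NS. The wild type values were 15.7, 13.1, 13.5, 18.7 and 25.9 under saline and 18.5, 16.8, 15.1, 25.4 and 34.3 under AngII. The knockout groups did not overlap, and KO+NS was the group farthest from the other 3. The interaction of -0.99 ± 0.29 lay in ENSMUST00000111729, a transcript annotated for nonsense-mediated decay, which averaged 18.7 FPKM in KO+NS and 4.69 in KO+AngII. Over protein-coding transcripts alone the interaction was 0.30 (unadjusted p = 0.343).

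Dhdds (chromosome 4, 133969028 to 134000918), a subunit of the enzyme that makes the dolichol carrier of N-glycans, had 13.5, 13.1, 18.5, 13.6 and 14.4 FPKM in KO+AngII and 18.7, 17.5, 21.97, 19.7 and 18.4 in KO+NS. Wild type libraries held 14.3 to 17.9 under saline and 15.6 to 18.5 under AngII. Its interaction was small, -0.46 ± 0.14, with SDs of 1.18 to 2.24 FPKM in the 4 groups. Replicate 3 of KO+AngII overlapped with KO+NS.

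Mblac2 (chromosome 13, 81711341 to 81753275), a metallo-beta-lactamase domain protein, had 1.82, 5.51, 1.97, 1.15 and 2.25 FPKM in KO+AngII and 4.91, 6.16, 4.15, 7.61 and 9.06 in KO+NS. The wild type libraries held 1.29 to 5.81 under saline and 3.504 to 4.603 under AngII. KO+AngII replicate 2 lay inside the KO+NS range and the other 4 below it. Fam213b (chromosome 4, 154895504 to 154899135), which encodes a prostaglandin F synthase, had 24.8, 10.8, 18.3, 22.97 and 22.8 FPKM in KO+AngII and 36.3, 19.4, 36.2, 33 and 32.03 in KO+NS. Here KO+NS replicate 2 lay among the KO+AngII values. The interactions were -1.28 ± 0.41 and -0.90 ± 0.29.

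Among wild type-only higher genes Plpp5 (chromosome 8, 25720037 to 25724887), a phosphatase of lipid phosphates, had 4.25, 8.69, 7.401, 7.2 and 7.46 FPKM in WT+NS and 11.98, 10.7, 10.1, 10.5 and 12.7 in WT+AngII. The knockout libraries held 10.4, 7.37, 9.02, 9.604 and 10.8 under saline and 6.44, 9.43, 7.16, 9.01 and 7.59 under AngII. The wild type groups did not overlap, and the knockout groups did. The interaction was -0.86 ± 0.21 (unadjusted p = 0.000777). It lay in transcripts annotated as retained intron or nonsense-mediated decay, and over protein-coding transcripts alone it was 0.14 (unadjusted p = 0.593).

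Herpud1 (chromosome 8, 94386438 to 94395377) encodes a membrane protein of the endoplasmic reticulum that takes part in disposal of misfolded proteins and is induced by the unfolded protein response. Its FPKM was 18.4, 17.2, 23.8, 17.9 and 16.6 in WT+NS and 43.3, 24.3, 37.5, 21.7 and 39.1 in WT+AngII. In knockout it was 24.9, 17.4, 22.7, 16.3 and 15.9 under saline and 13.8, 17.2, 19.1, 20.8 and 17.8 under AngII. WT+AngII replicates 1, 3 and 5 exceeded all libraries of the other groups, and replicates 2 and 4 did not. The response was 0.75 ± 0.18 in wild type and -0.12 ± 0.18 in knockout. The coding transcript ENSMUST00000034220 averaged 25.0 FPKM in WT+AngII and 8.89 to 10.9 in the other groups.

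Hes1 (chromosome 16, 30064384 to 30067796), a transcriptional repressor and Notch target, had 6.19, 5.69, 7.08, 6.67 and 6.13 FPKM in WT+NS and 12.2, 10.4, 9.18, 9.49 and 8.18 in WT+AngII. These groups did not overlap. The knockout groups, at 8.597 ± 1.31 and 8.51 ± 1.497 FPKM (SD, n = 5 each), had means between them, and WT+NS was the group farthest from the rest. Wee1 (chromosome 7, 110122046 to 110143286), a kinase that holds back entry into mitosis, had 3.17 ± 0.776 FPKM in WT+NS, 4.97 ± 0.722 in WT+AngII, 4.03 ± 1.22 in KO+NS and 3.18 ± 0.716 in KO+AngII (SD, n = 5 each). Sertad1 (chromosome 7, 27486910 to 27490316), a transcriptional co-regulator that binds CDK4, had 14.1, 12.3, 13.98, 15.2 and 12.8 FPKM in WT+NS and 21.4, 23.6, 14.7, 19.7 and 18.9 in WT+AngII, with only replicate 3 of the latter inside the saline range. The interactions were -0.58 ± 0.18, -0.78 ± 0.26 and -0.57 ± 0.19.

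Among wild type-only lower genes Fyco1 (chromosome 9, 123789500 to 123851899) had the smallest interaction p. It encodes an adaptor that ties late endosomes and autophagosomes to kinesin for transport along microtubules. Its FPKM was 18.4, 19.8, 20.1, 17.5 and 20.1 in WT+NS and 7.92, 1.24, 9.28, 3.09 and 11.5 in WT+AngII. In knockout it was 16.3, 18.3, 21.04, 19.2 and 24.9 under saline and 22.4, 28.4, 18.6, 16.8 and 24.2 under AngII. Every WT+AngII library lay below every other library. The response was -1.66 ± 0.33 in wild type and 0.13 ± 0.33 in knockout, an interaction of 1.79 ± 0.47 (95% interval 0.81 to 2.78, unadjusted p = 0.00125). Both main coding transcripts were low in WT+AngII: ENSMUST00000167595 averaged 3.01 FPKM there and 9.02 to 9.59 elsewhere, and ENSMUST00000184082 averaged 3.50 against 10.1 to 12.5.

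Arhgap35 (chromosome 7, 16493719 to 16614993), the p190 RhoGAP that switches off RhoA, had 12.9, 12.5, 11.98, 11.1 and 10.7 FPKM in WT+NS and 7.81, 8.08, 2.996, 9.11 and 1.71 in WT+AngII. The knockout libraries held 9.69, 15.4, 12.1, 13.6 and 16.1 under saline and 17.3, 13.6, 15.6, 11.4 and 15.5 under AngII. As for Fyco1, every WT+AngII library lay below every other library, and replicates 3 and 5 lay lowest. The interaction was 1.19 ± 0.40, from a single annotated transcript.

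Stat5a (chromosome 11, 100859351 to 100885169), a transcription factor of cytokine signalling, had 18.9, 9.95, 17.6, 12.2 and 16.4 FPKM in WT+NS and 4.998, 13.6, 6.49, 5.799 and 7.102 in WT+AngII. KO+NS held 9.301, 8.21, 19.8, 6.92 and 12.6 and KO+AngII 10.4, 13.9, 13.8, 13.4 and 14.8. WT+AngII replicate 2 lay inside the saline range and the other 4 below it. Gk5 (chromosome 9, 96119362 to 96184608), a glycerol kinase, had 2.74, 2.47, 3.16, 1.91 and 1.57 FPKM in WT+NS and 0.856, 0.769, 1.96, 0.9204 and 1.68 in WT+AngII. Its knockout means were 2.34 ± 0.439 and 2.76 ± 0.372 FPKM (SD, n = 5 each). Neil2 (chromosome 14, 63182443 to 63193856), a DNA glycosylase of base excision repair, was low in every group, at 1.28 ± 0.151 FPKM in WT+NS and 0.6702 ± 0.105 in WT+AngII (SD, n = 5 each), without overlap, on about 149 reads per library. The interactions were 1.23 ± 0.36, 0.78 ± 0.24 and 0.55 ± 0.18.

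**Figure D2:**
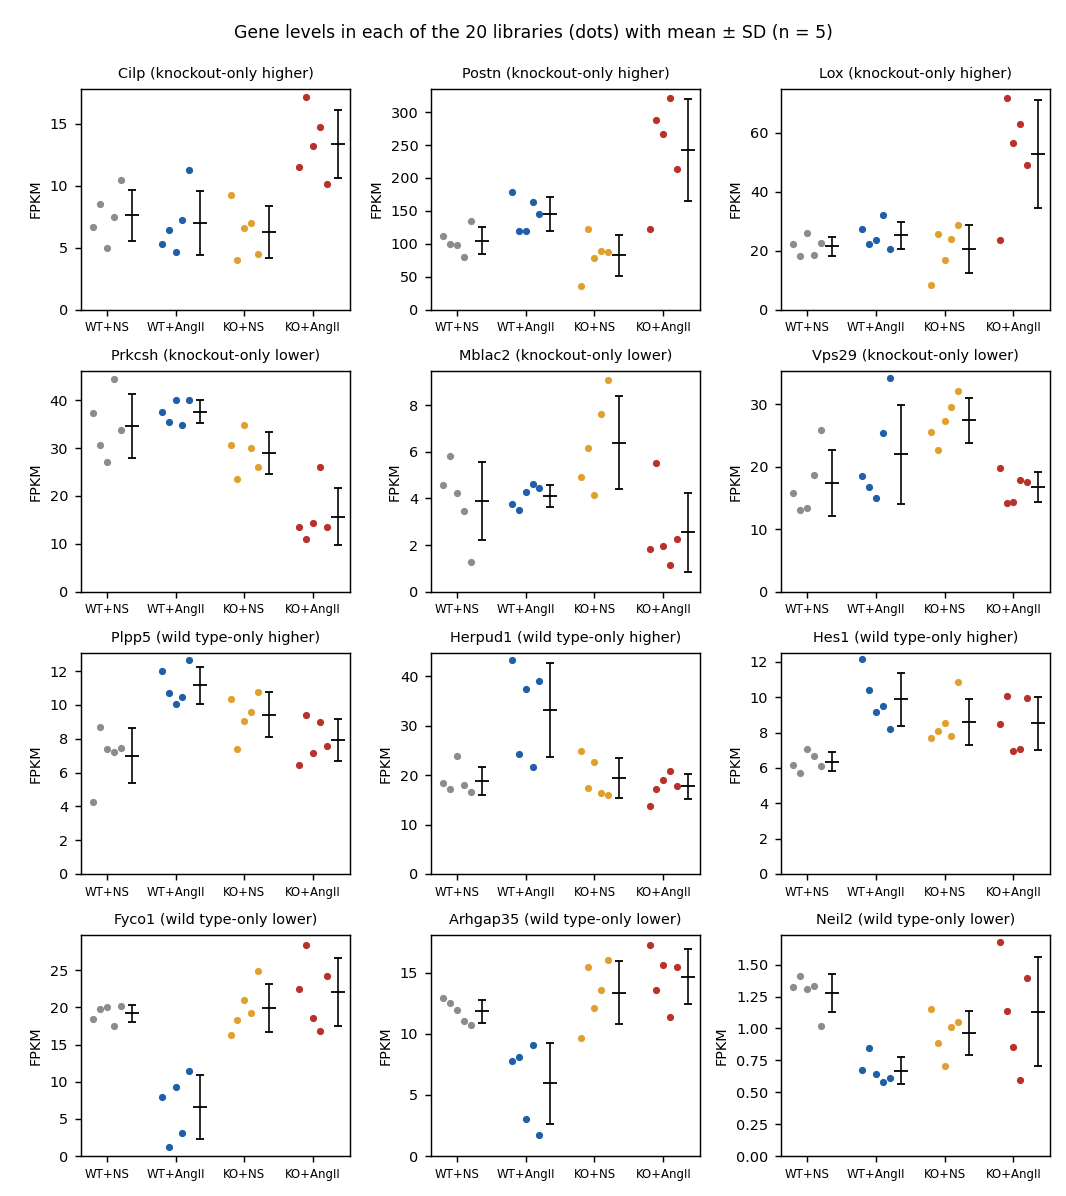
FPKM of 12 genes in each library (dots, in replicate order), with the mean and SD of each group of 5 beside them; each panel starts at 0 and names the gene's descriptive class. Cilp and Postn were higher in all 5 KO+AngII libraries than in KO+NS, and Fyco1 and Arhgap35 were lower in all 5 WT+AngII libraries than in any other library.

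In the opposite class Pgs1 (chromosome 11, 117986292 to 118024011), an enzyme of cardiolipin synthesis, had 10.01, 12.9, 13.6, 18.6 and 9.43 FPKM in WT+NS and 21.3, 20.1, 17.4, 20.1 and 22.7 in WT+AngII. In knockout it had 17.9, 17.3, 16.6, 15.99 and 19.4 under saline and 15.4, 9.18, 13.6, 9.59 and 17.3 under AngII. The responses were 0.65 ± 0.17 and -0.43 ± 0.17, an interaction of -1.08 ± 0.25, with 1 library of each AngII group inside the range of its saline group. Most of it, 83.7% in FPKM, lay in a transcript annotated for nonsense-mediated decay, ENSMUST00000017859. Over coding transcripts alone the interaction had an unadjusted p of 0.303.

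Strbp (chromosome 2, 37483228 to 37703859), a double-stranded RNA-binding protein, had 4.69, 3.84, 5.96, 6.44 and 5.76 FPKM in WT+NS and 7.64, 7.99, 4.71, 9.28 and 14.01 in WT+AngII. KO+NS held 16.4, 5.798, 13.1, 7.45 and 8.15 and KO+AngII 4.69, 3.497, 4.79, 5.19 and 5.45, without overlap. Its interaction of -1.46 ± 0.36 came from one transcript, ENSMUST00000072186 (3.17, 7.45, 8.97 and 2.92 FPKM on average in WT+NS, WT+AngII, KO+NS and KO+AngII). The longer ENSMUST00000028279 had the reverse order, at 1.33, 0.518, 0.282 and 1.39 FPKM. On recovered reads, which weight the longer transcript more, the gene's interaction was -0.03 (unadjusted p = 0.917).

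Bcl7a (chromosome 5, 123343834 to 123374992), a subunit of BAF chromatin remodelling complexes, averaged 1.99 ± 0.993 FPKM in WT+NS, 4.58 ± 1.67 in WT+AngII, 4.28 ± 1.36 in KO+NS and 2.43 ± 1.203 in KO+AngII (SD, n = 5 each). Setd3 (chromosome 12, 108106431 to 108179314), which methylates a histidine of actin, averaged 32.4 ± 5.91, 24.2 ± 1.61, 27.4 ± 2.15 and 34.98 ± 6.03 FPKM in the same order. All groups of both genes overlapped within genotype. The smallest interaction p of all genes, 0.000315, belonged to an antisense gene, Gm11175 (chromosome 8, 70699162 to 70700080), named here because of that p. Its FPKM was 2.49, 2.52, 2.33, 1.08 and 1.49 in WT+AngII and 0.913, 0.147, 0.0902, 0.4202 and 0 in KO+AngII. Under saline it was 1.06, 0, 1.796, 0.167 and 0.411 in WT+NS and 1.93, 0.7802, 1.82, 0.957 and 0.769 in KO+NS. The library kit named does not mark strand, so reads of Gm11175 and those of a gene on the other strand cannot be told apart.

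**Figure D3:**
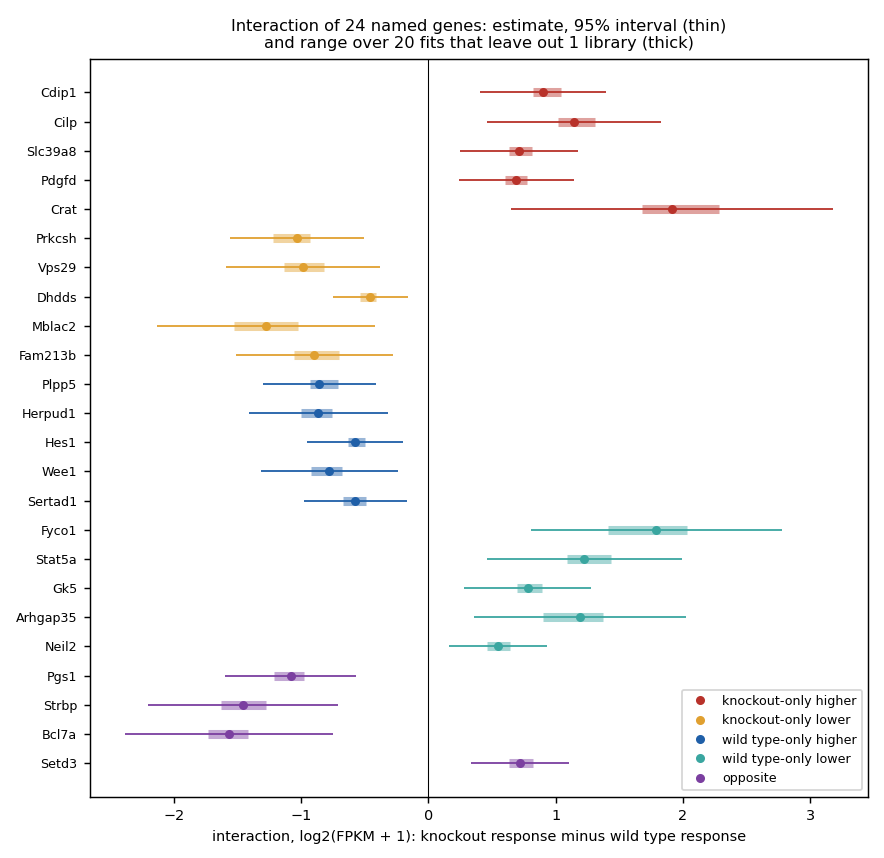
Interaction of the 24 class genes on the log2(FPKM + 1) scale: the point is the estimate from all 20 libraries, the thin line its 95% interval and the thick line the range over 20 fits that each leave out 1 library. All intervals exclude 0 because the classes were chosen on an unadjusted interaction p under 0.05.

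Much of the class membership did not hold in every fit that left out 1 library. Of the 55 knockout-only higher genes 13 stayed in the class in all 20 fits that left out 1 library, among them Cilp, Cdip1, Pdgfd and Lox. Of 59 knockout-only lower genes 11 did so, including Prkcsh, Dhdds and Mblac2. Of 54 wild type-only higher genes 11 did so, including Plpp5, Herpud1, Hes1 and Sertad1. Of 60 wild type-only lower genes 11 did so, including Fyco1, Arhgap35, Gk5 and Neil2. In the opposite class only Gm11175 did. Without KO+NS replicates 1 and 3 and KO+AngII replicate 2 the classes held 179, 78, 33 and 35 genes, and 12 with opposite responses. Of the original members 12 of 55, 20 of 59, 17 of 54, 19 of 60 and 2 of 19 were still in their class, in the same order.

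A gene can enter a class through its AngII group or through its saline group. The group whose mean log2 level was farthest from the mean of the other 3 was KO+AngII for 37 of 55 knockout-only higher and 49 of 59 knockout-only lower genes, and KO+NS for the other 18 and 10. It was WT+AngII for 41 of 54 wild type-only higher and 37 of 60 wild type-only lower genes, and WT+NS for the other 13 and 23. Protein-coding genes made up 87.3%, 83.1%, 79.6% and 93.3% of the 4 classes in this order, beside 88.9% of all tested genes. The median of their mean FPKM was 4.79, 10.1, 6.99 and 7.72, beside 7.09 over all tested genes.

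A count that does not use the p-values asked for groups without overlap. In knockout 39 genes (0.26%) had every KO+AngII library above every KO+NS library and 25 (0.167%) the reverse. In wild type 50 genes (0.333%) had every WT+AngII library above every WT+NS library and 42 (0.28%) the reverse. No gene met this in opposite directions in the genotypes. Cd109, Medag and Tnfrsf11b met it in both genotypes and were higher under AngII in each. Tnfrsf11b, which encodes the decoy receptor osteoprotegerin, had 1.67, 1.798, 1.36, 1.72 and 1.38 FPKM in WT+NS and 3.33, 2.84, 1.99, 3.68 and 3.17 in WT+AngII. In knockout it had 0.834, 1.62, 1.92, 1.802 and 1.97 under saline and 2.67, 17.9, 5.12, 4.86 and 2.71 under AngII. Cd109, a surface protein that binds TGF-beta, had responses of 0.44 ± 0.24 and 1.02 ± 0.24. Medag, a gene of adipogenesis, had nearly equal responses of 0.50 ± 0.14 and 0.46 ± 0.14. These 3 genes were singled out after their values were seen, and none had an adjusted response p under 0.05. How many genes would lie without overlap if none changed was not computed. The counts are therefore a description and not evidence of a response.

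Gene lists of pathways and cell types were then read for how the classes and the interaction fell in them. The 26 lists hold 605 tested genes, of which 27, or 4.46%, had an unadjusted interaction p under 0.05 beside 3.34% of all tested genes, and 0 had an adjusted p under 0.05 in either direction. Of the 228 genes in single-genotype classes 17, or 7.46%, were list members, beside 4.03% of all tested genes. They were Acads, Col8a1, Lox, Ltbp2, Mfap5, Postn, Synpo2 and Upk3b among knockout-only higher genes, and Per1 and Rtp4 among knockout-only lower genes. Ciart, Ddit3, Dhcr7, Herpud1 and S100a8 were wild type-only higher, and Fyco1 and Mme wild type-only lower. The lists were chosen with earlier results of these data known, so these shares are a description and no test of the lists.

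**Figure D4:**
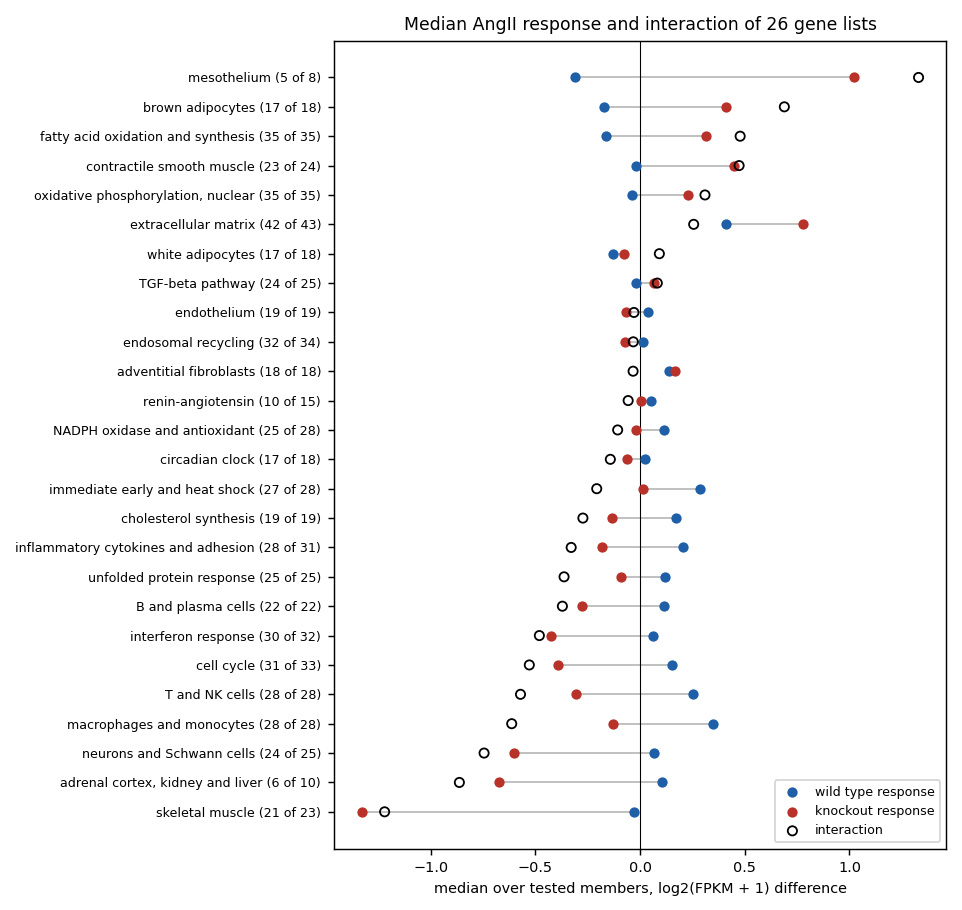
Median over the tested members of 26 gene lists (tested of listed in brackets) of the wild type response, the knockout response and the interaction, as differences of log2(FPKM + 1). Extracellular matrix medians were above 0 in both genotypes, whereas immune, cell cycle and interferon medians were above 0 in wild type and below 0 in knockout.

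Extracellular matrix genes had the highest response median of the 26 lists in wild type, 0.41 (36 of 42 members above 0), and after mesothelium the highest in knockout, 0.78 (37 of 42). Over all genes tested these medians were 0.02 and -0.06. The interaction median was 0.26, with 33 of 42 members above 0, beside 6151 of all 15010. Periostin (Postn), a matricellular protein, was knockout-only higher: its FPKM was 35.9, 122, 78.1, 88.4 and 86.8 in KO+NS and 123, 287, 267, 322 and 214 in KO+AngII. In wild type it was 112, 99.02, 97.4, 79.99 and 135 under saline and 178, 120.1, 119.6, 164 and 146 under AngII. Both genotypes were higher on average under AngII, and only the knockout groups did not overlap. Its interaction was 1.10 ± 0.40, from responses of 1.58 ± 0.28 and 0.48 ± 0.28.

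Lox, the enzyme that crosslinks collagen and elastin, had 8.37, 25.6, 16.98, 23.9 and 28.7 FPKM in KO+NS and 23.5, 71.9, 56.6, 63.2 and 49 in KO+AngII. The wild type libraries held 22.4, 18.2, 26.1, 18.6 and 22.6 under saline and 27.2, 22.3, 23.6, 32.1 and 20.7 under AngII. KO+AngII replicates 2 to 5 lay above every library of the other groups. Loxl2, a relative of Lox, had an interaction of the other sign, at 4.05, 4.77, 4.51, 1.11 and 6.98 FPKM in KO+NS and 0.349, 0.688, 0.717, 0.743 and 0.5995 in KO+AngII, without overlap, while wild type libraries spread from 0.288 to 11.1 FPKM.

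Other matrix genes had similar signs in both genotypes. Eln, which encodes elastin, had 145 ± 26.5 and 275 ± 92.4 FPKM in WT+NS and WT+AngII, and 100.3 ± 40.96 and 334 ± 159.6 in KO+NS and KO+AngII (SD, n = 5 each). Its interaction of 0.80 ± 0.53 had an unadjusted p of 0.149. Ccn2, a connective tissue growth factor, had responses of 0.93 ± 0.39 in wild type and 1.77 ± 0.39 in knockout, with an interaction p of 0.148. The collagen genes Col1a1 and Col3a1 had responses of 0.66 ± 0.35 and 0.69 ± 0.35 in wild type. In knockout these were 0.83 ± 0.35 and 0.92 ± 0.35. Their interactions were small, 0.16 ± 0.49 and 0.23 ± 0.49, with unadjusted p values of 0.745 and 0.648 in limma. A difference between genotypes was not detectable for Eln, Ccn2, Col1a1 or Col3a1 at this precision. KO+NS replicate 1 was low in the matrix list, at 4.09 beside 4.80 to 4.98 in the other KO+NS libraries, and KO+AngII replicate 1 was the lowest of its group at 4.77. Without the 3 libraries of lowest weight the interaction median of the list was 0.05, no higher than the 0.057 over all genes tested. Without KO+AngII replicate 1 the list had a median of 0.47. In that fit Ccn2, Lox, Postn and Eln passed the knockout response test in limma at adjusted p values of 0.0459, 0.0449, 0.0349 and 0.0449. Over all 36 alternatives the median of the list stayed above 0, from 0.05 to 0.47. The median over all genes tested moved as well, from -0.108 to 0.0588, so a list median above 0 need not exceed it.

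Contractile smooth muscle genes had an interaction median of 0.47, with 20 of 23 above 0. The wild type median was -0.02 and the knockout median 0.45. Itga8, an integrin subunit of smooth muscle, had 11.2, 37.4, 40.7, 33.2 and 39.8 FPKM in KO+NS and 33.6, 78.2, 55.2, 73.2 and 53.4 in KO+AngII, beside 49.01 ± 10.6 in WT+NS and 35.9 ± 9.71 in WT+AngII (SD, n = 5 each). Synpo2, an actin-binding protein of the contractile apparatus, had 17.6 ± 5.68 FPKM in KO+NS and 24.6 ± 4.94 in KO+AngII, against 19.9 ± 3.36 and 17.5 ± 3.41 in wild type (SD, n = 5 each). Interactions were 1.35 ± 0.44 and 0.69 ± 0.31. The list was lowest in KO+NS, at 6.02 ± 0.43 (SD, n = 5), where replicate 1 was at 5.35. Without the 3 libraries of lowest weight its median interaction was 0.12, beside 0.057 over all genes tested. In whole vessel RNA, fewer cells of a type and less RNA per cell cannot be told apart.

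Lists of fat and of energy metabolism also had positive medians. The interaction median was 0.69 for brown adipocytes (16 of 17 above 0), 0.48 for fatty acid oxidation and synthesis (30 of 35) and 0.31 for nuclear-encoded oxidative phosphorylation (33 of 35), but 0.09 for white adipocytes (10 of 17). Acads, a short-chain acyl-CoA dehydrogenase, had 3.105, 5.45, 3.97, 3.53 and 5.08 FPKM in KO+NS and 17.6, 21.6, 5.41, 11.1 and 11.2 in KO+AngII. In wild type it had 11.8 to 42.2 under saline and 3.31 to 45.8 under AngII. KO+NS was the low group, and replicate 3 of KO+AngII lay inside it. Ucp1, the uncoupling protein that defines brown adipocytes, was above 0 in every library, lowest at 22.65 FPKM in KO+NS replicate 3 and highest in KO+AngII replicate 2. The pair of members with the smallest interaction p was Ebf2 and Pank1 for brown adipocytes, Acads and Ppara for fatty acids, Atp5d and Ndufs1 for oxidative phosphorylation, and Pnpla2 and Cfd for white adipocytes. Other than Acads they had unadjusted p values from 0.0384 to 0.108. Atp5d, a subunit of ATP synthase, had the opposite sign to its list, -1.73 ± 0.77. Without the 3 libraries of lowest weight the brown adipocyte, fatty acid and oxidative phosphorylation medians were -0.048, -0.004 and -0.112. Over all genes tested that fit gave 0.057.

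Mesothelial genes, which mark the lining of the body cavity, had the highest interaction median, 1.33 over 5 tested of 8. Upk3b was at 5.52, 11.2, 0.0758, 0.803 and 0.355 FPKM in KO+AngII and 0.0518, 0.1398, 0.0528, 0.126 and 0.05296 in KO+NS. In wild type it was at 0.442, 6.42, 1.499, 0.01102 and 4.68 under saline and 0.718, 3.08, 0.445, 0.224 and 0.196 under AngII. KO+AngII replicates 1 and 2 were high and all 5 KO+NS libraries low, and Lrrn4 was also highest in replicate 2 of that group, at 3.99 FPKM. Msln, which defines the mesothelium, ranged from 0.0252 to 14.0 FPKM over the 20 libraries, highest in the same library.

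Immune lists had negative interaction medians. Over all genes tested the interaction median was also below 0, at -0.07, with 6151 of 15010 genes above 0. The medians were -0.61 for macrophages and monocytes (6 of 28 above 0), -0.57 for T and NK cells (0 of 28), -0.37 for B and plasma cells (4 of 22) and -0.33 for inflammatory cytokines and adhesion (4 of 28). Among these 4 lists 1 gene had an unadjusted interaction p under 0.05. It was S100a8, a calcium-binding protein of neutrophils, with 11.4, 18.1, 13.02, 15.2 and 9.06 FPKM in WT+NS and 34.7, 43.97, 19.4, 53.2 and 35.4 in WT+AngII, without overlap. In knockout it had 24.4, 10.98, 317, 15.2 and 21.6 under saline and 12.96, 9.18, 27.5, 25.04 and 35.2 under AngII. Lcn2, which neutrophils also carry, was at 9.15, 8.43, 80.1, 8.99 and 12.01 FPKM in KO+NS, so that replicate 3 stood above the other libraries for both genes.

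The level of the T and NK list was 4.39, 1.03, 4.86, 1.40 and 0.69 in KO+NS and 0.71, 0.55, 3.21, 4.16 and 2.16 in KO+AngII. In WT+NS it was 3.62, 3.10, 3.93, 4.06 and 1.88 and in WT+AngII 3.12, 3.82, 3.34, 3.56 and 4.12. The knockout groups each split into libraries above 2 and libraries below 1.5, whereas wild type libraries stayed above 1.8. Cd3e, which encodes a chain of the T cell receptor complex, ranged from 0.418 FPKM in KO+AngII replicate 2 to 42.2 in KO+NS replicate 3, and neither Cd3e nor the B cell gene Cd79a was at 0 in any library. Without KO+NS replicates 1 and 3 and KO+AngII replicate 2 the medians were 1.285 for T and NK cells, 1.83 for B and plasma cells, 0.33 for macrophages and 0.36 for the inflammatory list, all of the other sign. Over all genes tested that fit gave 0.057. The KO+NS libraries left out were the highest of their group in the T and NK list, and the KO+AngII library the lowest of its own. Leaving them out therefore raises the T and NK median by the choice of libraries. Leaving out KO+NS replicate 3 alone gave 0.010 for T and NK cells, and leaving out KO+NS replicate 1 alone gave 0.279 for B and plasma cells.

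Cell cycle genes (interaction median -0.53, 2 of 31 above 0) and interferon response genes (-0.48, 1 of 30) also had negative medians. KO+NS replicates 1 and 3 held the highest interferon levels of all libraries, 4.40 and 3.79, and cell cycle levels of 3.66 and 2.64. Without the 3 libraries of lowest weight the medians were 0.47 and 0.15, beside 0.057 over all genes tested. Rtp4, an interferon-induced gene, was knockout-only lower: it had 9.57, 6.19, 9.91, 3.93 and 4.85 FPKM in KO+NS and 1.62, 2.15, 2.64, 3.62 and 2.05 in KO+AngII, without overlap. Wild type libraries held 1.11 to 8.52 under saline and 2.53 to 8.48 under AngII. Oasl2, another interferon-induced gene, had the other sign, with an interaction of 1.27 ± 0.61. Anln, a scaffold of the dividing cell's furrow, was likewise opposite to its list at 0.78 ± 0.40.

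**Figure D5:**
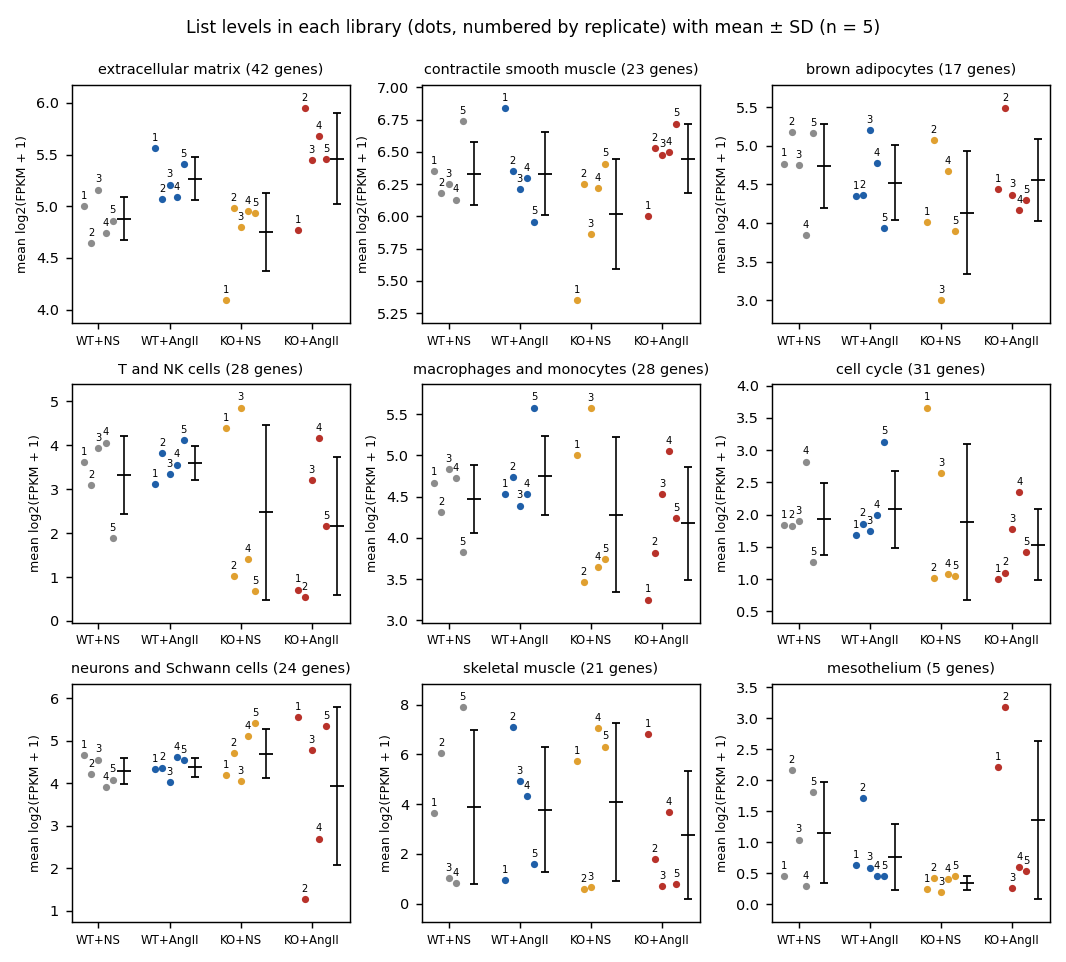
Mean log2(FPKM + 1) of the tested genes of 9 lists in each library (dots, labelled with the replicate number), with the mean and SD of each group of 5. In T and NK cell genes KO+NS replicates 1 and 3 were high and replicates 2, 4 and 5 low, KO+AngII replicates 1 and 2 were low and replicates 3, 4 and 5 lay at 2.16 to 4.16, and KO+AngII replicate 2 was at 1.28 in nerve genes.

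Stress response genes had negative medians as well. In the unfolded protein response list the median was -0.36 (6 of 25 above 0), with a wild type median of 0.12 and a knockout median of -0.09. Herpud1 was joined by Ddit3, the stress-induced transcription factor CHOP, at 26.98, 27.9, 22.5, 22.9 and 29.4 FPKM in WT+NS and 31.8, 32.9, 33.8, 31.2 and 25.5 in WT+AngII. The knockout libraries held 22.8, 22.4, 18.5, 30.2 and 21.1 under saline and 21.6, 21, 22.7, 18.9 and 20.9 under AngII. Its interaction was -0.36 ± 0.17, and WT+AngII replicates 1 to 4 lay above every library of the other groups. In the immediate early and heat shock list the median was -0.21 (7 of 27 above 0). Jund, a subunit of the AP-1 transcription factor, had 110.5, 69.7, 87.5, 98.8 and 77.3 FPKM in WT+NS and 125, 127, 113, 109.9 and 103 in WT+AngII. In knockout it had 66.4, 61.6, 81.6, 68.9 and 89.7 under saline and 49.9, 63.1, 66.8, 60.95 and 75.5 under AngII. All WT+AngII libraries lay above all knockout libraries, but they overlapped with WT+NS. Jund, Junb and Ier2 had interactions of -0.61 ± 0.20, -1.05 ± 0.42 and -0.74 ± 0.34. The median of the immediate early list stayed below 0 in all 36 alternatives, from -0.31 to -0.04. That of the unfolded protein response list was 0.007 without the 3 libraries of lowest weight, beside 0.057 over all genes tested.

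Cholesterol synthesis genes had an interaction median of -0.27 (2 of 19 above 0), below 0 in all 36 alternatives. Among all 15010 genes tested the median was -0.07, with 6151 above 0. Dhcr7, which catalyses the last step to cholesterol, had 2.04, 2.11, 1.09, 1.85 and 1.15 FPKM in WT+NS and 12.3, 8.18, 1.38, 9.48 and 14.3 in WT+AngII. KO+NS held 2.17, 11.2, 8.79, 15.3 and 2.49 and KO+AngII 11.3, 12.2, 1.27, 7.77 and 1.67. WT+NS was uniformly low, and each of the other 3 groups mixed libraries below 3 FPKM with libraries above 7. Among circadian clock genes (median -0.14, 5 of 17 above 0) the repressor Ciart was wild type-only higher, at 2.62 ± 0.877 FPKM in WT+NS and 5.03 ± 1.92 in WT+AngII. Per1 was knockout-only lower, at 9.01 ± 4.83 FPKM in KO+NS and 3.98 ± 1.61 in KO+AngII (SD, n = 5 each). The labels give no time of day for tissue collection.

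In the renin-angiotensin list 4 of 10 tested genes had an interaction above 0, with a median of -0.06 beside -0.07 over all genes tested. The AT1 receptor gene Agtr1a had 16.5, 9.05, 11.04, 6.69 and 10.2 FPKM in WT+NS and 8.92, 10.6, 5.702, 9.87 and 11.02 in WT+AngII. Its knockout libraries spread from 6.27 to 29.4 under saline and from 2.97 to 47.5 under AngII, and the interaction was 0.19 ± 0.80 (unadjusted p = 0.811). Agtr1b had an interaction of -0.09 ± 0.30. Agt, which encodes the precursor of AngII, had one of -0.43 ± 0.93 and was listed at 0 in KO+AngII replicate 2. Agtr2, whose highest library held 0.87 FPKM, fell under the filter. Mme, the protease neprilysin that degrades AngII and related peptides, was wild type-only lower, at 13.2, 16.4, 15.7, 13.5 and 14.9 FPKM in WT+NS and 8.97, 9.33, 15.03, 12 and 8.41 in WT+AngII, with replicate 3 inside the saline range. Its knockout libraries ranged from 9.18 to 20.4 FPKM, and the interaction was 0.61 ± 0.26 (unadjusted p = 0.03). Ace, the enzyme that makes AngII, had a knockout response of 0.59 ± 0.23 and an interaction of 0.43 ± 0.33.

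Of 32 tested endosomal recycling genes 15 had an interaction above 0 and the median was -0.03. Fyco1 was the only one in a single-genotype class. Rab35, a GTPase of recycling endosomes, had 12.2, 21.1, 13.2, 15.9 and 12.2 FPKM in WT+NS and 12.99, 3.48, 2.46, 12.4 and 13.2 in WT+AngII. The knockout libraries held 13.5, 9.65, 15.1, 4.73 and 10.5 under saline and 18.8, 20.2, 21.4, 11.3 and 10.8 under AngII. WT+AngII replicates 2 and 3 were the lowest of the 20 libraries, and the other 3 lay among the saline values. The interaction was 1.51 ± 0.54. Rab4b, a GTPase of fast recycling, had one of -0.55 ± 0.26. The Rab22a sum had an interaction of 0.03 ± 0.41.

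NADPH oxidase and antioxidant genes had a median of -0.11 (8 of 25 above 0), with no member at an unadjusted interaction p under 0.05. TGF-beta pathway genes had one of 0.08 (15 of 24), and all genes tested one of -0.07 (6151 of 15010). Ltbp2, a protein of elastic fibres, was knockout-only higher. It had 8.53 ± 6.18 FPKM in KO+NS and 20.99 ± 9.11 in KO+AngII, beside 14.5 ± 7.35 and 12.04 ± 9.13 in WT+NS and WT+AngII (SD, n = 5 each). Ltbp3, a relative, ran from near 0 to 15.1 FPKM or more within every group, and its interaction had a standard error of 1.61. Endothelial genes had a median of -0.03 (8 of 19 above 0) and adventitial fibroblast genes one of -0.03 (8 of 18). Mfap5, a microfibril protein in the latter list and in the matrix list, had 15.1, 38.9, 22.8, 10.1 and 7.41 FPKM in KO+NS and 36.1, 66.3, 55.9, 46.5 and 48.3 in KO+AngII. The wild type libraries, at 33.6, 14.1, 33.98, 25.04 and 37.9 under saline and 45.3, 14.2, 27.9, 61.8 and 31.02 under AngII, overlapped with both.

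Markers of tissues next to the aorta varied widely between libraries. The skeletal muscle list ran from 0.596 to 7.91 over the 20 libraries and had a median interaction of -1.22 (6 of 21 above 0). That median ran from -2.295 without WT+NS replicate 5 to -0.538 without WT+NS replicate 3, and was 0.066 without the wild type libraries of low Rab22a, WT+NS replicate 4 and WT+AngII replicate 2. Acta1, which defines it, was between 0.902 and 3084 FPKM, with high and low libraries in every group. Nerve genes had a median of -0.75 (2 of 24 above 0). KO+AngII replicates 2 and 4 held nerve levels of 1.28 and 2.70, beside 3.92 to 5.55 in the other 18 libraries, and without replicate 2 the median was -0.15. Adrenal, kidney and liver genes had a median of -0.86 (0 of 6 above 0). Alb, the liver protein albumin, was at 111, 79.4, 0.747, 190.4 and 2.25 FPKM in KO+NS, 6.62, 13.02, 11.1, 2.28 and 3.44 in KO+AngII, and at most 9.26 in wild type. No member of these 3 lists had an unadjusted interaction p under 0.05. A limma fit took the levels of 4 tissue lists as covariates: white adipocytes, skeletal muscle, B and plasma cells, and nerve. In it 0 genes were called and 1175 had an unadjusted p under 0.05. The adrenal, kidney and liver list was not a covariate. How much of a single gene's value came from any of these tissues was not tested.

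At the level of transcripts 34149 models were tested, of which 8760 are unannotated and name no gene. None (0.0%) had an adjusted interaction p under 0.05 in limma. The smallest adjusted p was 0.126, and 1503 (4.4%) had an unadjusted p under 0.05, among them 473 unannotated models. For Strbp both main transcripts had smaller p values than the gene, 0.000101 and 7.88e-05 unadjusted, in opposite directions.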

How the data were processed

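RNA-seq was made from total RNA depleted of ribosomal RNA, per the labels' protocols, in 20 libraries of abdominal aorta, 5 in each of 4 groups. The authors' deposited files give an FPKM value for each of 126719 transcript models, of which 16637 are unannotated. The unit is read from the values: 99.39% to 99.54% of them are within 0.1 read of a whole read number once multiplied by transcript length. The submitters' processing notes name mm10 and limma. For the aligner, the counting tool and the use of strand the entry is: not given in the sources used here. The library kit named does not mark strand.

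FPKM of 109913 matched Ensembl transcripts were summed per gene (GENCODE M21). Those reaching 1 FPKM in 5 or more libraries, 15010 of 42890, were tested on log2(FPKM + 1) with limma 3.58.1 (R 4.3.3; trend, robust, two-sided, Benjamini-Hochberg over all genes tested). One model over the 4 groups gave both responses and the interaction. The labels do not state that libraries are separate animals, so p-values measure the spread between these libraries, which may be technical. The scripts were tested on simulated data.

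The members and lists were chosen with earlier results of these data known. Genes named are the 5 of smallest interaction p in each single-genotype class and 4 in the opposite class (protein-coding, without predicted loci), and list members of smallest interaction p, for which a limit of 3 per list was narrowed to 2, or kept at 3 where p was under 0.05, after values were seen. Rab22a, Agtr1a, Agtr1b, Agtr2 and Agt were named whatever their values. The counts of groups without overlap, the group farthest from the rest and the transcript fit were chosen after values were seen. So were 5 of the 36 alternatives, Gm11175, Cd109, Medag, Tnfrsf11b, Eln, Ccn2, Col1a1, Col3a1 and the defining markers. The same holds for other class members named for staying in a class. Replicate numbers were not treated as pairs. Over 30 pairs of libraries with the same number, deviations from the group means correlated from -0.523 to 0.412, with 10 pairs over 0.1. Over 120 pairs with different numbers they correlated from -0.65 to 0.643, with 40 pairs over 0.1. Whether libraries of the same number shared a batch or a day cannot be told from these values.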

Additional observations from a re-analysis of the deposited data

Results flagged for a closer look

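A library was singled out where its gap to the nearest of its group exceeded 0.71 of the range of the 5 values. Of 428 groups of values examined, 39 had such a library. A rate of 1 in 20, or 21.4 groups, holds only for independent and normally distributed values. FPKM and levels of related, selected genes are neither, so the 2 numbers do not measure an excess. KO+AngII replicate 2 was singled out in 5 groups of values, and KO+NS replicates 1 and 3 and WT+AngII replicate 2 in 4 each.

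KO+NS replicate 1 stood apart in Itga8 at 11.21 FPKM, Ace at 26.95 FPKM, the extracellular matrix list at a mean log2(FPKM + 1) of 4.09 and the adventitial fibroblasts list at a mean log2(FPKM + 1) of 4.57. KO+NS replicate 2 was apart in Crat at 77.45 FPKM, Fam213b at 19.35 FPKM and Pnpla2 at 616.7 FPKM. KO+NS replicate 3 lay apart from its group in S100a8 at 317.4 FPKM, Lcn2 at 80.12 FPKM, Folr2 at 53.91 FPKM and Ltbp2 at 19.44 FPKM. KO+NS replicate 5 was far from the other 4 in Hes1 at 10.86 FPKM. KO+AngII replicate 1 stood apart in Actn3 at 52.04 FPKM and Pvalb at 158.8 FPKM. KO+AngII replicate 2 was apart in Mblac2 at 5.515 FPKM, Cnp at 8.637 FPKM, Ace at 132.1 FPKM, Ltbp3 at 15.1 FPKM and the brown adipocytes list at a mean log2(FPKM + 1) of 5.49. KO+AngII replicate 3 lay apart from its group in Dhdds at 18.52 FPKM. KO+AngII replicate 4 was far from the other 4 in Prkcsh at 26.05 FPKM, Ighm at 528.9 FPKM and Gzma at 10.15 FPKM. WT+NS replicate 3 stood apart in Herpud1 at 23.79 FPKM and the cholesterol synthesis list at a mean log2(FPKM + 1) of 3.51. WT+NS replicate 4 was apart in Ltbp3 at 17.01 FPKM and Rab22a at 2.824 FPKM. WT+NS replicate 5 lay apart from its group in Neil2 at 1.016 FPKM. WT+AngII replicate 1 was far from the other 4 in Oasl2 at 5.119 FPKM. WT+AngII replicate 2 stood apart in Stat5a at 13.58 FPKM, Upk3b at 3.084 FPKM, Rab22a at 2.652 FPKM and the mesothelium list at a mean log2(FPKM + 1) of 1.71. WT+AngII replicate 3 was apart in Acads at 45.78 FPKM, Ebf2 at 8.383 FPKM and Pnpla2 at 559.2 FPKM. WT+AngII replicate 4 lay apart from its group in Crat at 96.29 FPKM. WT+AngII replicate 5 was far from the other 4 in Atp5d at 116.1 FPKM and the cell cycle list at a mean log2(FPKM + 1) of 3.13.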

How the results depend on the processing

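The count of interaction genes called was 0 in 35 of 36 alternatives. Without the filter it was 1, the lincRNA Gm13853 (chromosome 6, 33984989 to 33992411), which reached at most 0.171 FPKM. The number at an unadjusted p under 0.05 was 1631 with library weights, 1508 without the filter, 1175 with 4 tissue covariates, and 380 to 753 over fits leaving out 1 library. Wild type response calls were 2 with library weights (Fyco1 and Zfp57), 11 without the filter, and 0 to 1 leaving out 1 library (Snap47 without WT+NS replicate 4, Pdpr without WT+AngII replicate 3). Knockout response calls were 2 with library weights (Postn and Mblac2) and 0 to 4 leaving out 1 library (Ccn2, Lox, Postn and Eln without KO+AngII replicate 1, Prkcsh without KO+AngII replicate 4).

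Knockout-only higher genes numbered 84 with quantile normalization, 251 with library weights, 125 without the filter, 30 with a filter at 5 FPKM, 90 and 164 with 2 and 4 tissue covariates, 36 without the wild type libraries of low Rab22a, 112 without KO+NS replicates 1 and 3, 179 without the 3 libraries of lowest weight, and 31 to 116 leaving out 1 library. Knockout-only lower genes numbered 183 with library weights, 155 without the filter, 126 and 240 with 2 and 4 tissue covariates, and 44 to 146 leaving out 1 library. Wild type-only higher genes numbered 108 with library weights, 451 without the filter, 34 at 5 FPKM, 31 with limma-voom on recovered reads, 86 with 4 tissue covariates, 33 without the 3 libraries of lowest weight, and 33 to 108 leaving out 1 library. Wild type-only lower genes numbered 243 with library weights, 218 without the filter, 97 with 4 tissue covariates, 30 without KO+NS replicates 1 and 3, 35 without the 3 libraries of lowest weight, and 35 to 126 leaving out 1 library. Opposite genes numbered 73 with library weights, 36 without the filter, 10 at 5 FPKM, 9 with limma-voom, 44 with 4 tissue covariates, 12 with protein-coding transcripts alone, 12 without KO+NS replicates 1 and 3, 12 without the 3 libraries of lowest weight, and 7 to 25 leaving out 1 library. The cause was not tested. The replicate block gave 0 interaction genes called, 472 at an unadjusted p under 0.05, and classes of 53, 55, 46, 60 and 18 genes, which shared 40 of 55, 44 of 59, 42 of 54, 46 of 60 and 14 of 19 with those reported, and changed no adjusted call.

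Of 81 named genes 70 kept the sign of their interaction in every alternative that gave a value. Most were named for a small interaction p in the fit of all libraries, which favours a kept sign. Rab22a, Agtr1a, Agtr1b and Agt, named whatever their values, each turned in some alternatives. With protein-coding transcripts alone the sign turned for Vps29 (0.302) and Plpp5 (0.142). With library weights it turned for Ncr1 (0.083), Gzma (0.13) and Agtr1b (0.033), with quantile normalization for Agtr1b (0.008), with limma-voom for Ttr (0.133) and Apoa1 (0.309), and with 4 tissue covariates for Agt (0.262). Without KO+NS replicates 1 and 3 it turned for Ncr1 (0.147), Gzma (0.187), Rab22a (-0.042) and Agtr1a (-0.256). Without the 3 libraries of lowest weight it turned for Ncr1 (0.275), Gzma (0.384), Ace (-0.006), Rab22a (-0.027) and Agt (0.183). Leaving out 1 library also turned 4 genes, whose values ranged from -0.259 to 0.325 for Rab22a, -0.252 to 0.651 for Agtr1a, -0.194 to 0.054 for Agtr1b and -0.779 to 0.31 for Agt (the last without KO+AngII replicate 2). The cause was not tested. The mesothelium list had no member at 5 FPKM and so no value there. The median interaction over all genes lay between -0.108 and 0.0588, and 8518 of 15010 genes were above 0 with library weights. With 5 libraries per group the median standard error of an interaction was 0.311.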
